A study of Mus musculus with 9 samples.

Results

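The genes described here are the 4 chains of the interferon receptors, Ifnar1, Ifnar2, Ifngr1 and Ifngr2, together with Stat2 and the interferon regulatory factors Irf1, Irf3, Irf7 and Irf9. They were taken by gene symbol from the 9 expression files of MC38 cells, where they make up 9 of the 16399 genes listed, and all 9 passed the filter on low values that left 11287 genes. MC38 is a mouse colon carcinoma line that grows in C57BL/6 mice. Each of the 3 groups consisted of 3 biological replicates. MC38-P is the parental line, and MC38-LM3a and MC38-LM3b are liver metastatic derivatives established independently in the third round of selection, in which cells injected into the spleen of C57BL/6 mice were recovered from liver lesions and expanded in culture. All groups carried a GFP and luciferase reporter and were grown in the same serum-containing medium, and no interferon or other treatment is named for any of them. Each derivative is 1 line, so the replicates measure the spread within a line and not between selections, and p-values refer to the spread between these libraries, which may be technical.

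Type I interferons bind a receptor made of Ifnar1 and Ifnar2, while interferon gamma binds a separate receptor in which Ifngr1 holds the ligand and Ifngr2 completes the signalling unit. Receptor-bound Janus kinases then activate Stat proteins. Stat2 and Irf9 are subunits of the transcription factor ISGF3, which binds the interferon-stimulated response element (ISRE) of type I target genes, whereas Irf1 is a transcription factor strongly induced by interferon gamma. Irf3 is present before infection and is activated by kinases downstream of nucleic acid sensors, and Irf7 is an interferon-induced factor that drives the transcription of interferon alpha genes.

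The values are TPM, transcript abundance per length scaled to the same total in every library. The depth behind them is unknown because no read counts were analysed, and a level of 1 gene in bulk RNA cannot tell fewer expressing cells from less RNA per cell. The label of the cells is epithelial. Krt8 lay between 744 and 1206 TPM and Epcam between 1.87 and 6.31 TPM in the 9 libraries, whereas Cdh1, Vil1 and Cdx1 stayed at or under 0.13 TPM. The 9 epithelial markers summed to 2003 to 2318 TPM for MC38-P, 1592 to 1811 for MC38-LM3a and 1584 to 1629 for MC38-LM3b. This sum was carried by Krt8 and Krt18, and Epcam had means of 5.76, 2.05 and 2.21 TPM. Not all markers fell, as Krt19 had means of 114, 149 and 108 TPM and Krt20 of 0.69, 1.48 and 1.15 TPM. Of the macrophage markers, 6 of 10 were listed and their summed level ranged from 38.9 to 40.2 TPM for MC38-P, from 48.8 to 53.7 for MC38-LM3a and from 55.7 to 60.1 for MC38-LM3b, carried by Cd68 and Cd14, while Ptprc, Csf1r, Itgam and Lyz2 did not exceed 0.28 TPM. Summed hepatocyte markers did not exceed 0.89 TPM, and 1 of 9 T and NK cell markers was listed, at no more than 0.18 TPM. Endothelial markers summed to 1.40 to 2.38 TPM over all libraries. Stellate and fibroblast markers summed to 140 to 176 TPM for MC38-P, 55.3 to 74.6 for MC38-LM3a and 67.1 to 73.2 for MC38-LM3b. This sum was carried by Col3a1 (means 140.5, 55.0 and 60.9 TPM), while Pdgfrb had means of 1.54, 2.13 and 3.66 TPM. Plasmacytoid dendritic cell markers, 3 of 4 listed and carried by Bst2 and Tcf4, summed to 80.03 to 87.4, 98.3 to 102.6 and 98.8 to 113.6 TPM in the same order. The part of these marker lists in the results was not tested. Across 11096 genes, the deviation of MC38-P replicate 3 from its group correlated with transcript length (Spearman rho -0.62), as did that of MC38-LM3a replicate 3 in the opposite direction (0.64), while rho lay between -0.01 and 0.02 for the MC38-LM3b libraries. Replicates 1 and 2, each set against a mean that holds replicate 3, had 0.51 and 0.41 for MC38-P and -0.55 and -0.51 for MC38-LM3a, an opposite sign that the comparison within a group of 3 imposes, so this measure does not say in which replicates the trend arose. Results are therefore also given after a correction for GC content and length, which centres each library as well, and without both of these libraries. Ratios between genes, given below, were not run on corrected values.

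The sequences upstream of the genes are shown first, because several of these genes are themselves known targets of interferon signalling. RefSeq promoter windows of GRCm38.p6 were found for all 9 genes, 11 windows in all, each running from 250 bases before to 50 bases after the annotated start. Windows were searched on both strands for an ISRE core (TTTC, any 2 bases and TTTC again), a gamma-activated site (GAS, TTCNNNGAA) and a kB site (GGGA, any 4 bases and CC). Of the 32851 windows in the table, 3.44% held the ISRE core, 8.30% the GAS and 20.7% the kB letters. The 250 bases before the start are printed for the pair of interferon gamma receptor chains, whose ratio is one of the results, and for Stat2, Irf1 and Irf7, with the matches in capitals.
Ifngr1: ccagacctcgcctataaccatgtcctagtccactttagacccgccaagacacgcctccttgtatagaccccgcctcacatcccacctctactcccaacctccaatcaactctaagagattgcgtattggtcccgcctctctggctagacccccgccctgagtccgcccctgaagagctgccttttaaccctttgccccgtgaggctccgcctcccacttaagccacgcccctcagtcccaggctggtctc
Ifngr2: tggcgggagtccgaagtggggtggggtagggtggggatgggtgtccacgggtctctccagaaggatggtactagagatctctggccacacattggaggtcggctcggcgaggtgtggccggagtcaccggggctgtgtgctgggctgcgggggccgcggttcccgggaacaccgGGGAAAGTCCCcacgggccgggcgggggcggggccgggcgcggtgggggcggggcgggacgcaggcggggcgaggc
Stat2: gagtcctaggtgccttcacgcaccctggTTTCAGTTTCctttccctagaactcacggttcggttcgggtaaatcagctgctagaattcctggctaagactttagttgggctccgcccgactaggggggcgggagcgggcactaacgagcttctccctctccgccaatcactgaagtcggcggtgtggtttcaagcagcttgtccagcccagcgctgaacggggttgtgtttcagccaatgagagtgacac
Irf1: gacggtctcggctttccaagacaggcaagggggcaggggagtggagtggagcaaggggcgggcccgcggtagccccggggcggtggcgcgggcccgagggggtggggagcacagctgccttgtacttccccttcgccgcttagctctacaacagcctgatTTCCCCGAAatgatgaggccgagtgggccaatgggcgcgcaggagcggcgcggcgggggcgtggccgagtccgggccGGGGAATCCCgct
Irf7: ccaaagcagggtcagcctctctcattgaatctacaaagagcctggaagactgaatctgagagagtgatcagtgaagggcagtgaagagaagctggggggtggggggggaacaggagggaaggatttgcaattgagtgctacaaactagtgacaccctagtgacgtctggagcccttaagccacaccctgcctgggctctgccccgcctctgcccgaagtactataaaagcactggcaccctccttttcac

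These stretches lie at chr10:19591699-19591948 for Ifngr1, chr16:91546809-91547058 for Ifngr2, chr10:128270248-128270497 for Stat2 and chr11:53769764-53770013 for Irf1, all on the plus strand, and at chr7:141266425-141266674 on the minus strand for Irf7. Stat2 was the only gene of the 9 with the ISRE core in a window, at positions -222 to -213 from the start. Irf1 held a GAS at -90 to -82 and a kB match at -13 to -4, both in the first of its 2 windows. Ifngr2 held 2 overlapping kB matches between -76 and -66. A GAS match was also present at -214 to -206 of Ifnar2 and, across the start, at -5 to 4 of Ifnar1. No match was found in the windows of Ifngr1, Irf3, Irf7 and Irf9, which says only that these letters do not occur there. The matches describe the sequence and were not tested as binding sites.

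Levels of the 9 genes spanned from about 1 TPM for Irf7 to more than 60 TPM for Irf1. In MC38-P the order of the means was Irf1 (54.9 TPM), Irf3 (32.2), Ifngr1 (27.2), Ifnar2 (14.6), Ifngr2 (8.38), Ifnar1 (7.92), Stat2 (6.54), Irf9 (4.33) and Irf7 (1.27). Ifngr2 and Ifnar1, Ifnar1 and Stat2, and Stat2 and Irf9 were neighbours whose MC38-P libraries overlapped. In both derivatives the order was the same except that Stat2 stood above Ifnar1 and Ifnar1 above Ifngr2. In MC38-LM3a the ranges of Stat2 and Ifnar1 overlapped, and in MC38-LM3b no neighbours overlapped. At the RNA level, Ifngr1 thus exceeded Ifngr2 and Ifnar2 exceeded Ifnar1 in every library. These values do not measure receptor protein. Among the 11287 tested genes, Irf1 lay between the 73.3rd and 77.2nd percentile of a library and Irf7 between the 3.06th and 11.4th.

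**Figure D1:**
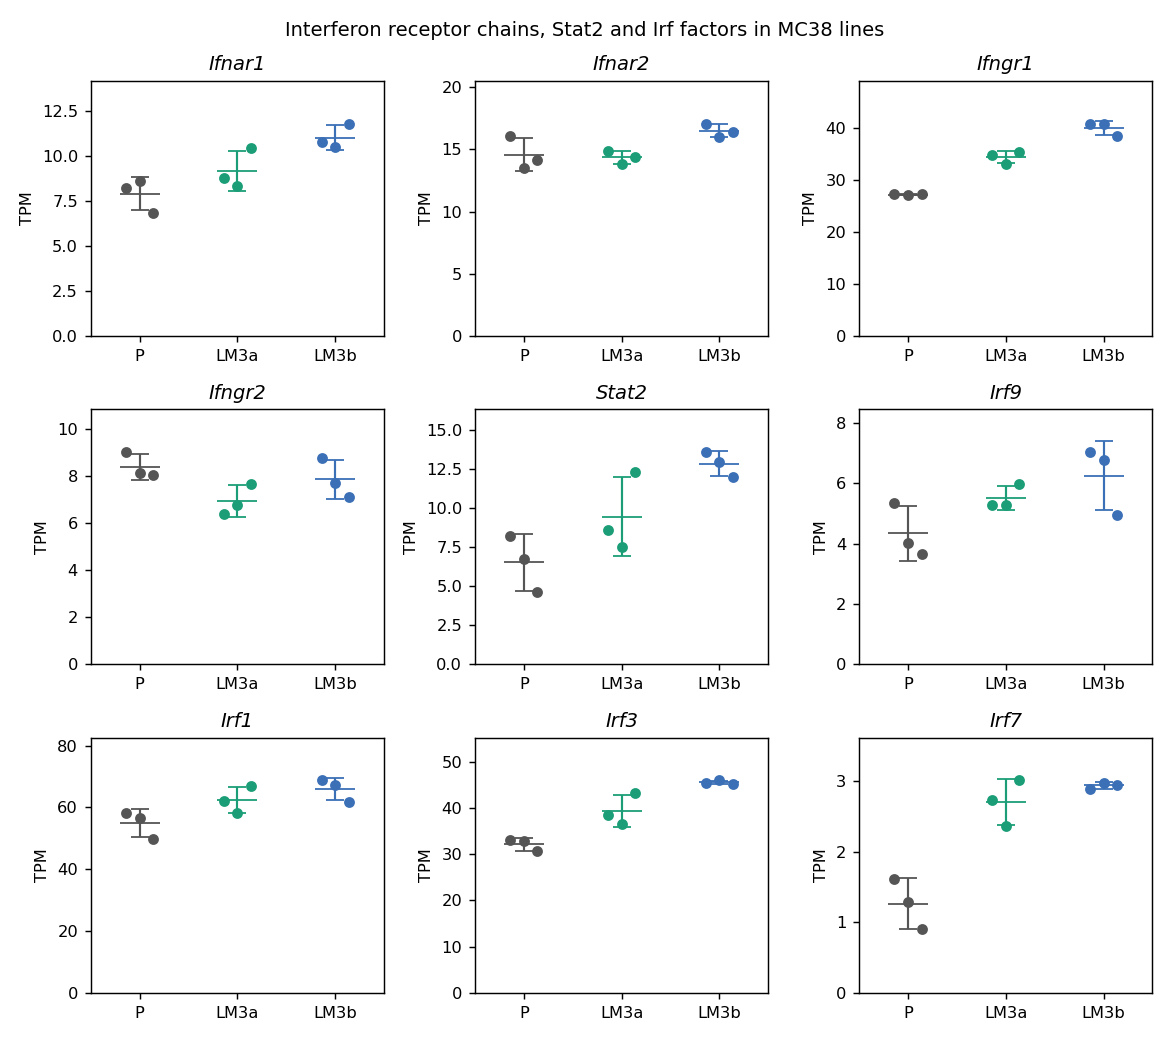
Level in TPM of each gene in the 9 libraries of MC38-P (P), MC38-LM3a and MC38-LM3b. Points are libraries, and lines and bars are the mean and SD (n = 3). The derivative libraries of Irf7 lie between 2.36 and 3.01 TPM and those of MC38-P between 0.90 and 1.61 TPM, while the Ifngr2 libraries of MC38-LM3b overlap those of MC38-P.

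The first question was whether the chains of the type I receptor differed between parental and metastatic cells. Ifnar1 (NCBI Gene 15975, chromosome 16) had 8.26, 8.62 and 6.87 TPM in MC38-P, 8.79, 8.35 and 10.5 TPM in MC38-LM3a, and 10.8, 10.5 and 11.8 TPM in MC38-LM3b. Every MC38-LM3b library thus lay above every library of the other groups, and MC38-LM3a overlapped MC38-P. The means were 7.92 ± 0.924 (SD, n = 3), 9.20 ± 1.12 and 11.1 ± 0.686 TPM. Ifnar1 rose in MC38-LM3b by 0.44 on the log2 scale (standard error 0.122, adjusted p = 0.0142), and the value in MC38-LM3a was 0.19 (adjusted p = 0.273). The MC38-LM3a value was 0.11 (adjusted p = 0.537) without MC38-P replicate 3. It was 0.02 (0.843) without that library and MC38-LM3a replicate 3, and 0.21 (0.0181) with the GC and length correction. The call in MC38-LM3b was lost with quantile normalization, where the log2 fold change was 0.16 (adjusted p = 0.0821), and without MC38-LM3b replicate 3 (0.39, adjusted p = 0.0610).

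Ifnar2 (NCBI Gene 15976, chromosome 16), the high-affinity chain of the same receptor, had 16.1, 13.5 and 14.1 TPM in MC38-P, 14.9, 13.8 and 14.4 TPM in MC38-LM3a, and 17.1, 16 and 16.4 TPM in MC38-LM3b. MC38-P overlapped both derivatives, whereas MC38-LM3b stood above MC38-LM3a. Its log2 fold change was -0.02 (95% interval -0.23 to 0.19, adjusted p = 0.919) in MC38-LM3a and 0.17 (-0.04 to 0.38, adjusted p = 0.158) in MC38-LM3b. Ifnar2 passed the test against MC38-P under none of the 20 alternative settings, and its MC38-LM3b value lay below the median of all tested genes.

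Ifngr1 (NCBI Gene 15979, chromosome 10), the ligand-binding chain of the interferon gamma receptor, was higher in every library of both derivatives. MC38-P had 27.3, 27.0 and 27.2 TPM, MC38-LM3a 34.8, 33.0 and 35.2 TPM, and MC38-LM3b 40.8, 40.7 and 38.4 TPM. The 3 groups did not overlap, and the lowest MC38-LM3b library stood above the highest of MC38-LM3a. The mean rose from 27.2 ± 0.135 TPM to 34.3 ± 1.16 TPM in MC38-LM3a (1.26-fold, log2 fold change 0.33, standard error 0.0720, adjusted p = 0.00650) and to 39.96 ± 1.37 TPM in MC38-LM3b (1.47-fold, log2 fold change 0.54, adjusted p = 2.449e-04). Both calls held under all 20 alternatives, with log2 fold changes of 0.27 to 0.35 and 0.32 to 0.57.

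The partner chain Ifngr2 (NCBI Gene 15980, chromosome 16) had 9.01, 8.10 and 8.04 TPM in MC38-P, 6.37, 6.75 and 7.67 TPM in MC38-LM3a, and 8.75, 7.68 and 7.12 TPM in MC38-LM3b. The MC38-LM3a libraries were all below those of MC38-P, and the MC38-LM3b libraries overlapped both. Its log2 fold change was -0.24 (95% interval -0.50 to 0.01, adjusted p = 0.146) in MC38-LM3a and -0.09 (-0.34 to 0.17, adjusted p = 0.545) in MC38-LM3b. On values corrected for GC content and length, Ifngr2 fell in both, by 0.24 (adjusted p = 0.0254) in MC38-LM3a and by 0.27 (adjusted p = 0.0119) in MC38-LM3b on the log2 scale. Quantile normalization and median centring gave the same calls. In MC38-LM3a the value was -0.25 under both. Ifngr2 was also called lower there without MC38-LM3a replicate 3 and MC38-P replicate 3 (-0.34, adjusted p = 0.0153). In that fit 45.2% of all genes were lower in MC38-LM3a and their median was -0.14. Of 20 alternatives, 5 called Ifngr2 in MC38-LM3a, and every one of these that kept all libraries was rescaled. In MC38-LM3b quantile normalization and median centring gave -0.36 and -0.31. The call on Ifngr2 thus depends on how libraries are scaled in both derivatives, though in MC38-LM3a its value hardly moved with scaling.

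Stat2 (NCBI Gene 20847, chromosome 10) had the largest difference of the 9 genes in MC38-LM3b on the log2(TPM + 1) scale, while in plain TPM the fold of Irf7 was larger. Its levels were 8.24, 6.75 and 4.63 TPM in MC38-P, 8.59, 7.50 and 12.3 TPM in MC38-LM3a, and 13.6, 12.96 and 11.99 TPM in MC38-LM3b. The MC38-LM3b libraries stood above all of MC38-P, and MC38-LM3a overlapped both other groups, its replicate 3 lying within the range of MC38-LM3b. The mean rose 1.96-fold from 6.54 ± 1.81 to 12.9 ± 0.811 TPM in MC38-LM3b (log2 fold change 0.91, standard error 0.199, adjusted p = 0.00437), a call held under all 20 alternatives. In MC38-LM3a, with 9.46 ± 2.52 TPM, the log2 fold change was 0.48 (adjusted p = 0.103). That value moved from 0.09 (adjusted p = 0.459) without MC38-LM3a replicate 3 and MC38-P replicate 3 to 0.64 (adjusted p = 0.0478) without MC38-P replicate 1, and with the GC and length correction it was 0.51 (adjusted p = 0.00372). Of the 9 genes, Stat2 was the only one that overlaps another listed gene on the chromosome, Apof, which did not exceed 0.20 TPM.

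Irf9 (NCBI Gene 16391, chromosome 14), the DNA-binding partner of Stat2 in ISGF3, had 5.35, 4.01 and 3.64 TPM in MC38-P, 5.29, 5.26 and 5.97 TPM in MC38-LM3a, and 7.03, 6.78 and 4.94 TPM in MC38-LM3b. All groups overlapped. The log2 fold change was 0.30 (adjusted p = 0.187) in MC38-LM3a, and Irf9 rose by 0.44 (standard error 0.155, adjusted p = 0.0378) in MC38-LM3b. The call in MC38-LM3b held under 8 of 20 alternatives and was lost without MC38-P replicate 2 or 3, MC38-LM3a replicate 1, or MC38-LM3b replicate 1 or 2 (adjusted p from 0.0512 to 0.138). The value was 0.26 (adjusted p = 0.0801) after the correction for GC content and length, 0.22 (adjusted p = 0.155) with median centring and 0.18 (adjusted p = 0.211) with quantile normalization.

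Irf1 (NCBI Gene 16362, chromosome 11) had 58.3, 56.7 and 49.8 TPM in MC38-P, 61.9, 58.4 and 66.8 TPM in MC38-LM3a, and 68.7, 67.3 and 61.8 TPM in MC38-LM3b. Both derivatives stood above MC38-P without overlap, but by little, as the lowest MC38-LM3a library (58.35 TPM) exceeded the highest parental one (58.34 TPM) by less than the spread of any group. The log2 fold change was 0.18 (standard error 0.0850, adjusted p = 0.144) in MC38-LM3a, and Irf1 rose by 0.26 (adjusted p = 0.0281) in MC38-LM3b. The MC38-LM3a value was 0.11 (adjusted p = 0.335) without MC38-P replicate 3. It was 0.06 (0.365) without that library and MC38-LM3a replicate 3, and 0.16 (0.0286) with the GC and length correction. In MC38-LM3b the gene was 0.05 above the median log2 fold change of all tested genes, and the call was lost with median centring (0.04, adjusted p = 0.595) and quantile normalization (0.09, adjusted p = 0.188). The call was also lost without MC38-P replicate 3 (0.19, adjusted p = 0.0918) or MC38-LM3b replicate 1 (0.23, adjusted p = 0.102) or 2 (0.25, adjusted p = 0.0910).

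Irf3 (NCBI Gene 54131, chromosome 7) had 33.1, 32.8 and 30.6 TPM in MC38-P, 38.5, 36.5 and 43.3 TPM in MC38-LM3a, and 45.5, 46.0 and 45.2 TPM in MC38-LM3b. The 3 groups did not overlap and stood in this order. The mean rose from 32.2 ± 1.35 TPM to 39.4 ± 3.502 TPM in MC38-LM3a (log2 fold change 0.28, standard error 0.0815, adjusted p = 0.0256) and to 45.6 ± 0.391 TPM in MC38-LM3b (1.42-fold, log2 fold change 0.49, adjusted p = 9.311e-04). The MC38-LM3b call held under all 20 alternatives and the MC38-LM3a call under 15, with losses without MC38-P replicate 2 (adjusted p = 0.0648), MC38-P replicate 3 (0.0577) or MC38-LM3a replicate 1 (0.0578).

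Irf7 (NCBI Gene 54123, chromosome 7) was the least abundant of the 9 genes and the one with the largest difference in MC38-LM3a. MC38-P had 1.61, 1.29 and 0.90 TPM, MC38-LM3a 2.74, 2.36 and 3.01 TPM, and MC38-LM3b 2.89, 2.98 and 2.95 TPM. Every derivative library lay above every parental one, while the derivatives overlapped each other. The mean rose from 1.27 ± 0.356 TPM to 2.70 ± 0.327 TPM in MC38-LM3a (2.13-fold) and 2.94 ± 0.0458 TPM in MC38-LM3b (2.32-fold). On the log2(TPM + 1) scale, which understates changes at such low levels, the differences were 0.72 (standard error 0.136, adjusted p = 0.00289) and 0.81 (adjusted p = 9.844e-04). Both calls held in all 19 alternatives that could be run, with log2 fold changes of 0.54 to 1.06 and 0.59 to 1.19.

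Across the 9 genes, 3 were higher in MC38-LM3a (Ifngr1, Irf3 and Irf7) and 0 lower, where 14.1% of all tested genes were higher, 13.8% lower and 28.0% called in either direction. In MC38-LM3b, 7 were higher and 0 lower, beside 35.6% higher, 11.2% lower and 46.7% called among all genes. Higher in both comparisons were 3 of the 9 genes and 13.3% of all genes, but these comparisons share the MC38-P libraries. On the log2(TPM + 1) scale none of the 9 passed the additional threshold of an absolute log2 fold change above 1, which 2.89% of all genes passed in MC38-LM3a, against 3.93% in MC38-LM3b. This depends on the pseudocount, since with 0.1 TPM Irf7 had 1.06 and 1.19 (adjusted p = 0.00407 and 0.00150) and Stat2 1.0003 in MC38-LM3b (adjusted p = 0.00487). The median log2 fold change of the 9 genes was 0.28 in MC38-LM3a, where all tested genes had a median of 0.00, and 0.44 in MC38-LM3b, where all tested genes had a median of 0.21. Relative to that shift, the MC38-LM3b values were 0.69 for Stat2, 0.60 for Irf7, 0.33 for Ifngr1, 0.28 for Irf3, 0.23 for Ifnar1 and Irf9, 0.05 for Irf1, -0.04 for Ifnar2 and -0.30 for Ifngr2. Among all tested genes, the log2 fold change of Irf7 stood at the 97.0th percentile in MC38-LM3a and the 94.7th in MC38-LM3b, that of Stat2 at the 93.0th and 96.2nd, and that of Ifngr2 at the 20.1st and 22.1st.

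Libraries of the groups did not overlap for 4 higher genes (Ifngr1, Irf1, Irf3 and Irf7) and 1 lower gene (Ifngr2) in MC38-LM3a, while this was the case for 20.3% and 15.9% of all tested genes. In MC38-LM3b, 6 of the 9 genes (Ifnar1, Ifngr1, Stat2, Irf1, Irf3 and Irf7) stood above MC38-P without overlap and 0 below, beside 51.3% and 15.4% of all genes. After the correction for GC content and length, 7 of the 9 were higher and 1 (Ifngr2) lower in MC38-LM3a, where 26.1% of 11096 genes were higher, 25.0% lower and 51.2% called. In MC38-LM3b the corrected values gave 6 higher and 1 lower (Ifngr2), beside 29.2%, 28.3% and 57.4%. The medians of the 9 genes were then 0.27 and 0.26, and those of all genes 0.00 and 0.01. Corrected values thus added calls in MC38-LM3a, for Ifnar1, Stat2, Irf9, Irf1 and Ifngr2, and in MC38-LM3b exchanged Irf9 for Ifngr2. Without MC38-LM3a replicate 3 and MC38-P replicate 3, 4 of the 9 genes were called in MC38-LM3a (Ifngr1, Irf3 and Irf7 higher, Ifngr2 lower) and 6 in MC38-LM3b, where Irf9 was lost. In that fit the MC38-LM3a comparison called 63.6% of all genes, 18.4% as higher and 45.2% as lower, and the MC38-LM3b comparison 65.3%, split into 46.3% and 19.0%.

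**Figure D2:**
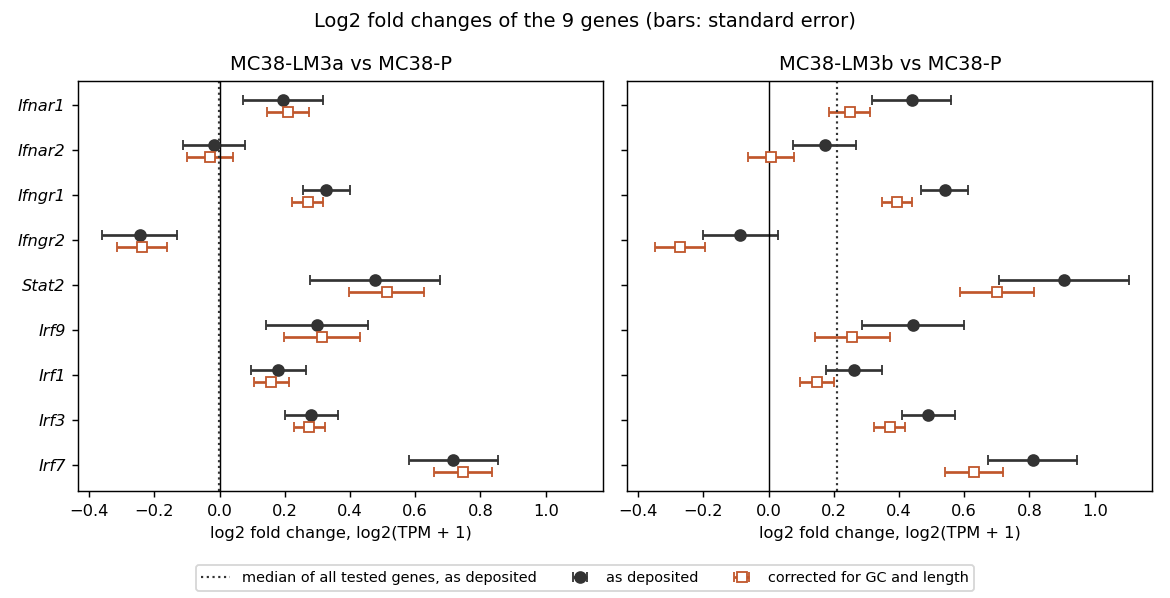
Log2 fold change of each gene against MC38-P on the log2(TPM + 1) scale, as deposited (filled) and after the correction for GC content and transcript length (open), with standard errors. The dotted line is the median of all tested genes, 0.00 in MC38-LM3a and 0.21 in MC38-LM3b; Irf7 and Stat2 lie farthest to the right and Ifngr2 to the left of 0 in both panels.

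The derivatives were compared with each other to see whether the 9 genes separated 2 lines established independently in the third round. None of the 9 genes passed the adjusted threshold in limma, 2 (Ifngr1 and Irf3) had an unadjusted p-value under 0.05, as did 38.1% of all tested genes, and 0.0532% of all tested genes were called. Ifngr1 and Irf3 both had a log2 difference of 0.21 in favour of MC38-LM3b (95% intervals 0.05 to 0.37 and 0.03 to 0.39, adjusted p = 0.119 for each), equal to the median of 0.21 over all tested genes. Ifnar1, Ifnar2, Ifngr1 and Irf3 stood above MC38-LM3a without overlap, as did 38.4% of all genes, and 0 of the 9 stood below, beside 3.60%. Without MC38-LM3a replicate 3, 4 of the 9 genes were called higher in MC38-LM3b, with log2 differences of 0.62 for Stat2 (adjusted p = 0.0127), 0.33 for Ifnar1 (0.0360), 0.28 for Irf3 (0.0114) and 0.23 for Ifngr1 (0.0258), but then 56.4% of all genes were called. After the correction for GC content and length none of the 9 was called, beside 0.198% of all genes, and their median difference was 0.04.

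Levels of partner genes were set against each other within each library. Ratios are given in plain TPM, but differences between groups were tested after adding 1 TPM to each level, which understates them for a gene as low as Irf7. The ratio of Ifngr1 to Ifngr2 was 3.03, 3.33 and 3.38 in MC38-P, 5.46, 4.89 and 4.59 in MC38-LM3a, and 4.66, 5.30 and 5.39 in MC38-LM3b. All 6 derivative libraries thus lay above all parental ones. The mean ratios were 3.25 ± 0.193 (SD, n = 3), 4.98 ± 0.438 and 5.12 ± 0.398. The derivatives exceeded MC38-P by 0.60 on the log2(TPM + 1) scale (two-sided exact permutation test, p = 0.0238, adjusted p = 0.0476 over the 4 ratios). No smaller p-value is possible with 3 against 6 libraries. For Irf7 relative to Irf3, the ratios were 0.0487, 0.0393 and 0.0294 in MC38-P, 0.0712, 0.0647 and 0.0696 in MC38-LM3a, and 0.0635, 0.0648 and 0.0653 in MC38-LM3b. Again all 6 derivative libraries were higher, with the same exact permutation p-values. The difference was 0.38 on the log2(TPM + 1) scale and 0.73 with a pseudocount of 0.1 TPM, so its size depends on the pseudocount.

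The other pairs did not pass. Ifnar1 relative to Ifnar2 averaged 0.546 ± 0.0800 for MC38-P, 0.641 ± 0.0754 for MC38-LM3a and 0.670 ± 0.0455 for MC38-LM3b, a difference of 0.24 on the log2(TPM + 1) scale with 3 of 6 derivative libraries above all parental ones (exact permutation test, p = 0.0952, adjusted p = 0.119). Stat2 relative to Irf9 was 1.498 ± 0.209, 1.70 ± 0.325 and 2.09 ± 0.291, a difference of 0.32 with 4 of 6 libraries above (exact permutation test, p = 0.119, adjusted p = 0.119). All 6 derivative libraries thus lay above all of MC38-P for Ifngr1 over Ifngr2 and for Irf7 over Irf3, and not for the other pairs. For Stat2 over Irf9, MC38-LM3b alone (1.93, 1.91 and 2.43) did lie above all of MC38-P (at most 1.68). MC38-LM3a (1.43 to 2.06) overlapped MC38-P there. Differences between the pairs were not tested. The permutation test pools libraries of 2 lines as 1 group. Its adjusted p-values passed only because the Ifngr1 to Ifngr2 and Irf7 to Irf3 ratios both reached the smallest p-value. With MC38-LM3a or MC38-LM3b alone against MC38-P, 3 against 3 libraries cannot give a p-value under 0.1. On the log2(TPM + 1) scale the Ifngr1 to Ifngr2 difference was then 0.57 and 0.63, and the Irf7 to Irf3 difference 0.43 and 0.32.

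**Figure D3:**
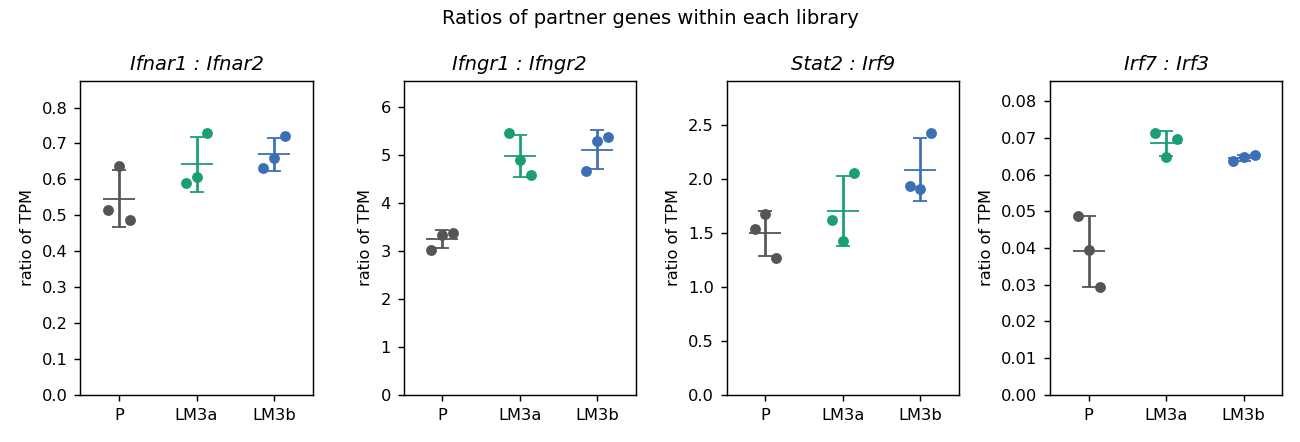
Ratio of the TPM of 2 partner genes within each library, on linear axes that start at 0. Points are libraries, and lines and bars are the mean and SD (n = 3). The Ifngr1 to Ifngr2 ratio is at most 3.38 in MC38-P and at least 4.59 in the derivatives. For Ifnar1 to Ifnar2 both derivatives overlap MC38-P, and for Stat2 to Irf9 MC38-LM3a does and MC38-LM3b does not.

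Ifnar2, Ifnar1 and Ifngr2 are neighbours on chromosome 16, in a cluster with Il10rb, the second chain of the interleukin 10 receptor. Of the 4 receptor genes, on uncorrected values, Ifnar1 was called in MC38-LM3b and the others in neither derivative. Differences between these genes were not tested. The log2 fold change of Il10rb, -0.06 for MC38-LM3a and 0.10 for MC38-LM3b (adjusted p = 0.784 and 0.552), lay between those of Ifnar1 and Ifngr2. Around them, Gart, an enzyme of purine synthesis, fell in both (by 0.35 and 0.33, adjusted p = 0.00990 and 0.00885), as did Cfap298 (by 0.60 and 0.67) and Eva1c (by 0.52 and 0.65). Synj1 and Tmem50b, named after their values were seen, rose in MC38-LM3b (log2 fold change 0.73 and 0.58, adjusted p = 0.00461 and 0.00417), with values of 0.34 and 0.19 in MC38-LM3a that did not pass. The median over the 344 tested genes of chromosome 16 matched that of all genes, at 0.00 for MC38-LM3a and 0.21 for MC38-LM3b. The chromosomes of the other members had medians of 0.00 to 0.06 in MC38-LM3a and 0.18 to 0.25 in MC38-LM3b.

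Up to 5 genes on each side were examined, 70 tested entries in all, some of them next to more than 1 member. Of these entries, 9 (12.9%) were higher in both derivatives, a share near the 13.3% of all genes, and 6 (8.57%) were lower in both, near the 9.07% of all genes. Next to Ifngr1, Pex7 rose by 0.45 and 0.51 and Ccdc28a by 0.72 and 0.80, out of 7 tested neighbours. Next to Irf9, Psme1 and Psme2, the proteasome activator subunits that interferon gamma induces, rose by 0.55 and 0.51 and by 0.57 and 0.44, out of 10. Near Irf7, Gatd1, Tmem80 and Taldo1 rose out of 7, with Gatd1 at 0.60 and 0.79. Near Stat2, Spryd4 rose by 0.41 and 0.34, out of 6. Irf3 lay between Rras, which rose by 0.39 and 0.66, and Prmt1, which fell by 0.22 and 0.44, and near Irf1 Pdlim4 fell by 1.30 and 1.22.

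**Figure D4:**
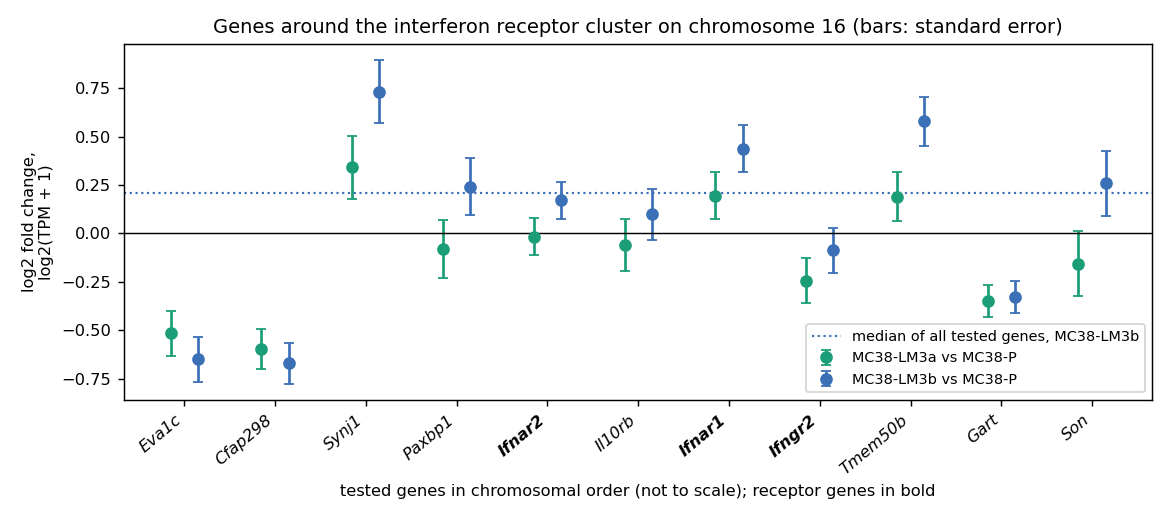
Log2 fold change against MC38-P, with standard errors, of the tested genes around the interferon receptor cluster of chromosome 16, in chromosomal order and not to scale. Ifnar1 lies above 0 and Ifngr2 below 0 in both derivatives, with Gart at -0.35 and -0.33. Of Ifnar1 and Ifngr2, only Ifnar1 in MC38-LM3b was called. Whether the neighbours move as 1 block was not tested.

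The remaining genes of the pathway were taken from lists that leave out the 9 genes. Beside their counts stand 14.1% of all tested genes higher and 13.8% lower in MC38-LM3a, and 35.6% and 11.2% in MC38-LM3b. The 5 listed interferon genes themselves (Ifna13, Ifnab, Ifnb1, Ifnk and Ifnz) did not exceed 0.55 TPM in any library, and none was tested. The Janus kinases, which sit on the receptor chains, were higher for 1 of 4 genes in MC38-LM3a (median 0.32) and for all 4 in MC38-LM3b (median 0.74). Jak3, which serves common gamma chain receptors, rose from 4.40 ± 1.01 TPM (SD, n = 3) to 9.44 ± 2.10 and 13.3 ± 1.44 TPM. Tyk2, the kinase of Ifnar1, rose from 5.75 ± 0.949 to 11.4 ± 0.414 TPM in MC38-LM3b and had 7.42 ± 1.51 TPM in MC38-LM3a. Jak1, which both receptors use, rose from 95.4 ± 14.5 to 144 ± 1.37 TPM in MC38-LM3b, and Jak2, the kinase of Ifngr2, from 29.2 ± 5.49 to 39.4 ± 1.15 TPM. In MC38-LM3a Jak1 had 120 ± 26.2 and Jak2 30.0 ± 5.85 TPM, and neither passed. Without MC38-LM3a replicate 3 and MC38-P replicate 3, 1 kinase was higher and 1 lower in MC38-LM3a and all 4 were higher in MC38-LM3b, in a fit where 45.2% of all genes were lower in the former and 46.3% higher in the latter. With the GC and length correction 3 of the 4 were higher in MC38-LM3a (median 0.38) and all 4 in MC38-LM3b (median 0.51), beside 26.1% and 29.2% of all genes.

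Of the other Stat genes, Stat3, Stat5a, Stat5b and Stat6 were tested and all 4 were higher in MC38-LM3b (median 0.51) and 0 in MC38-LM3a (median 0.19), while Stat4 did not exceed 0.04 TPM. The GC and length correction called all 4 higher in MC38-LM3a as well (median 0.24), beside 26.1% of all genes, and without both libraries 0 were higher and 1 lower there. Among the other Irf genes, Irf8, best known from myeloid cells, rose from 15.2 ± 0.0400 to 31.8 ± 1.99 TPM (MC38-LM3a) and 36.4 ± 1.13 TPM (MC38-LM3b). Irf2 rose in MC38-LM3b (log2 fold change 0.65, adjusted p = 0.00214) with 0.21 in MC38-LM3a, Irf5 had -0.12 and 0.19, and Irf4 did not exceed 0.02 TPM. Of these, 3 were tested, and the GC and length correction called 2 higher in each derivative, beside 26.1% and 29.2% of all genes. Irf2 then had 0.22 in MC38-LM3a and 0.45 in MC38-LM3b. Without both libraries 1 was higher and 1 lower in MC38-LM3a, beside 18.4% and 45.2%. Of the class II cytokine receptor chains other than the members, Il10rb and Il20rb were tested and neither passed, while Ifnlr1 and Il22ra1 were below the filter.

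Among 18 negative regulators, 2 were higher and 2 lower in MC38-LM3a, and 8 higher and 1 lower in MC38-LM3b, with medians of -0.03 and 0.17 that lay near those of all genes. Trim21, a ubiquitin ligase, rose in both (log2 fold change 0.75 and 0.97), Ptpn1, a phosphatase of Janus kinases, rose by 0.28 and 0.45, and Ptpn6, a further phosphatase, fell by 0.76 and 0.56. Without MC38-LM3a replicate 3 and MC38-P replicate 3, 9 of the 18 were lower in MC38-LM3a, where 45.2% of all genes were lower and their median was -0.14. With the GC and length correction 4 were higher and 5 lower in MC38-LM3a, beside 26.1% and 25.0% of all genes, while for MC38-LM3b 6 were higher and 4 lower (median -0.02), beside 29.2% and 28.3%. Of 16 kinases and adaptors upstream of Irf3 and Irf7, 5 were higher and 1 lower in MC38-LM3a, and 10 higher and 0 lower in MC38-LM3b (medians 0.14 and 0.39). Without both libraries named above the counts were 4 higher and 6 lower, beside 18.4% and 45.2% of all genes, and 10 higher and 1 lower, beside 46.3% and 19.0%. With the GC and length correction 8 were higher and 1 lower, and 10 higher and 1 lower. Ikbke, one of the kinases that phosphorylate Irf3 and Irf7, rose from 3.48 ± 0.580 to 7.31 ± 1.84 and 10.5 ± 0.333 TPM, and Tank, an adaptor of those kinases, rose by 0.46 and 0.77.

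Target genes had larger medians than the 9 genes, a difference that was not tested. Of 33 listed type I interferon targets, 26 were tested, and the 7 untested ones did not exceed 0.88 TPM. Among the tested, 18 were higher and 1 lower in MC38-LM3a, and 20 higher and 1 lower in MC38-LM3b. The medians were 0.52 and 0.81. Samd9l rose by 1.64 and 2.09 and Oas1a, an activator of RNA degradation, by 1.81 and 1.76, whereas Ifitm3, an inhibitor of virus entry, fell by 0.30 and 0.18 (adjusted p = 0.00736 and 0.0482). The call on Ifitm3 in MC38-LM3b was lost with the GC and length correction, where its value was -0.12. Of 31 listed interferon gamma targets, 22 were tested, and the 9 untested ones did not exceed 1.14 TPM. Among the tested, 18 and 20 were higher and 0 lower, with medians of 0.95 and 1.18. The filter bears on these counts. Rsad2 of the type I list (at most 0.81 TPM in MC38-P) and Iigp1 (at most 0.53 in MC38-P and 0.76 in MC38-LM3a) passed it through derivative libraries. Serpina3g, with means of 0.83, 0.12 and 0.21 TPM, was not tested. These 3 genes were named after their values were seen. Psmb9, a subunit of the immunoproteasome, rose by 2.03 and 2.40. Nlrc5, the transactivator of MHC class I genes, named after its values were seen, rose by 1.51 and 2.11. With the GC and length correction 20 and 20 type I targets and 19 and 20 interferon gamma targets were higher, beside 26.1% and 29.2% of all genes, and without both libraries 18 and 20 of each list, beside 18.4% and 46.3%. These lists were written with earlier results of these data known, so their direction is a description.

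**Figure D5:**
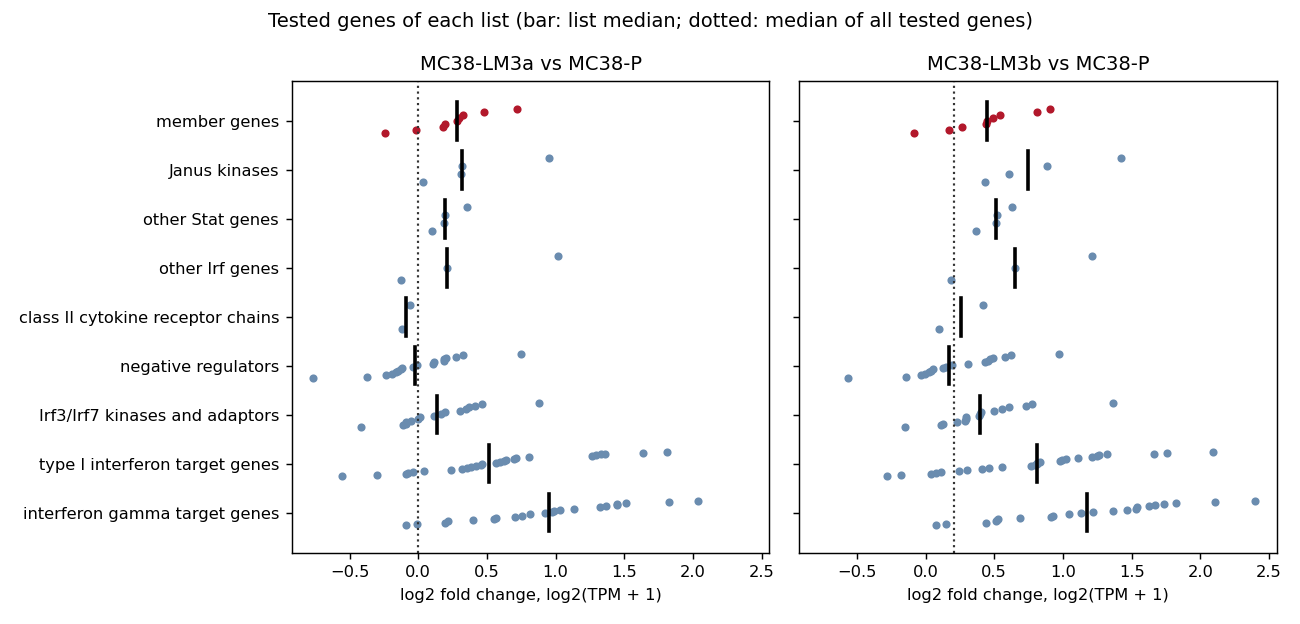
Log2 fold change against MC38-P of each tested gene of the 9 genes and of the other pathway lists. Thick bars are list medians, and the dotted line is the median of all tested genes; the medians of the 9 genes are 0.28 and 0.44, and those of the interferon gamma targets 0.95 and 1.18.

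The pattern over the 9 libraries was also compared gene by gene. Of the 36 pairs among the 9 genes, 28 had a Pearson correlation of log2(TPM + 1) above 0.5, with a median of 0.82 and a range of -0.39 to 0.97. These libraries share groups, and differences along transcript length enter every pair. Ifngr2 had no correlation above 0.5, with values from -0.39 with Irf7 to 0.33 with Ifnar2. On corrected values 20 pairs were above 0.5, Ifngr2 ranged from -0.94 with Ifnar1 to 0.26 with Ifnar2, and Ifnar2, with 0.33 to 0.70 before, had -0.27 to 0.26. Among all tested genes, genes with a pattern close to that of Stat2 included Cul4a and Vps16 (r = 0.998 and 0.996), and the pattern of Irf3 was most like those of Dctn5, Arl8a and Snapin (r = 0.998, 0.997 and 0.996). Irf7 was followed most closely by Ube2j1, Sdcbp and Pqlc3 (each r = 0.990), and Ifngr1 by Edem2, Il15 and Loxl3 (r = 0.989, 0.988 and 0.988). For Ifnar1 these genes were Rars2, Impa1 and Nudt4 (r = 0.996, 0.994 and 0.992), but on corrected values the first 2 fell to 0.63 and 0.39. Irf1 was most like Fbxw5, Asap3 and Sorbs3 (r = 0.985, 0.981 and 0.980), and Irf9 most like Pex19, Ccdc68 and Papss1 (r = 0.963, 0.961 and 0.948). Ifngr2 was most like Ppp1r13b, Cox11 and Usp2 (r = 0.964, 0.956 and 0.947), and Ifnar2 most like Creld2, Aagab and Bbs5 (r = 0.945, 0.940 and 0.929). On corrected values Cox11 had 0.65 with Ifngr2, and Creld2, Aagab and Bbs5 had 0.18, 0.75 and 0.58 with Ifnar2.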

How the data were processed

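Poly(A) RNA of 9 libraries, 3 for each line, was sequenced on the DNBSEQ platform. The authors deposited TPM for 16399 genes per library, and no column was pooled or left without a sample. The submitters' processing notes name HISAT and the build GRCm39. The quantification tool and the use of strand are not given in the sources used here. Because TPM are not counts, no count model was used, and the depth per library is unknown.

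Values were converted to log2(TPM + 1). The 11287 genes that reached 1 TPM in 3 or more libraries were tested in R 4.3.3 with limma 3.58.1, in 1 model of all 9 libraries with a mean per group, a trended variance and Benjamini-Hochberg adjustment over all tested genes. A gene was called at an adjusted p-value under 0.05. Corrected values subtract a loess fit (span 0.3) on GC content and length of GENCODE M21 transcripts, known for 98.3% of tested genes. Ratios were tested in scipy 1.17.1 by the two-sided exact permutation test. Chromosomes and promoters come from GRCm38 and were matched by gene number, 16279 of 16399 genes, and no coordinates of the authors' build were derived. The window of Stat2 was the 1 of 11 whose last bases were not found in a GENCODE transcript of its gene.

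The members and lists were chosen with earlier results of these data known. Named genes are the 9 members, every gene of the short pathway lists, in longer lists up to 2 largest rises and 2 largest falls called in both derivatives, the 3 genes most like each member, and neighbours called in both derivatives. For space, some called genes are given only by count. Some genes that this rule covers are not reported here. The procedure was tested on simulated data. The alternatives changed the pseudocount, the filter, the libraries in the model, the variance trend, the replicate block and the scaling, and left out each library in turn. Leaving out MC38-LM3a replicate 3 and MC38-P replicate 3 together was chosen after seeing the data.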

Additional observations from a re-analysis of the deposited data

How the results depend on the processing

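Among the 9 genes, Ifngr1 and Irf7 in both derivatives and Stat2 and Irf3 in MC38-LM3b were called under every alternative run, while Irf7 gave no value with a filter of at least 5 TPM. In MC38-LM3a, where 3 of the 9 genes were called, quantile normalization called 6, median centring 7, and the GC and length correction 8, also with a replicate block, while the number of all genes called went from 3160 to 4738, 4513, 5676 and, with the block, 5230. The replicate block alone called 2 in MC38-LM3a, where 19.5% of all genes were called, losing Irf3 (adjusted p = 0.0784), and 5 in MC38-LM3b, where 34.5% were called, losing Irf9 (0.0610) and Irf1 (0.0643). Same-numbered libraries deviated with correlations of -0.66 to -0.17 between MC38-LM3a and MC38-P and 0.04 to 0.07 in the other comparisons, so the numbers gave no pairing. Leaving out 1 library gave 2 to 4 calls in MC38-LM3a, beside 18.6% to 37.4% of all genes, 5 to 7 in MC38-LM3b, beside 33.0% to 59.0%, and 0 to 4 between the derivatives, the 4 without MC38-LM3a replicate 3, where 56.4% of all genes were called. Without that library and MC38-P replicate 3 there were 6 calls between the derivatives, beside 71.7% of all genes. Quantile normalization lost the calls on Ifnar1, Irf9 and Irf1 in MC38-LM3b (log2 fold change 0.16, 0.18 and 0.09). Irf3 in MC38-LM3a was also lost with only the compared groups in the fit (adjusted p = 0.0927), and Irf9 in MC38-LM3b without the filter (0.0684). The cause of these changes was not tested.

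Some values changed sign, none of them called in either fit. Against MC38-P, Ifnar2 in MC38-LM3b was -0.070 with quantile normalization and -0.051 with median centring, and in MC38-LM3a it ran from -0.065 to 0.050 when 1 library was left out, above 0 without MC38-P replicate 1 (0.050) or MC38-LM3a replicate 2 (0.0091). Between the derivatives, quantile normalization gave -0.021 for Ifnar1, -0.057 for Ifnar2, -0.11 for Ifngr2, -0.13 for Irf9, -0.091 for Irf1 and -0.14 for Irf7. Median centring gave -0.033 for Ifnar2, -0.0093 for Ifngr1, -0.065 for Ifngr2, -0.077 for Irf9, -0.14 for Irf1, -0.014 for Irf3 and -0.13 for Irf7. The GC and length correction, with or without the replicate block, gave -0.034 for Ifngr2, -0.057 for Irf9, -0.0100 for Irf1 and -0.12 for Irf7.

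The Ifngr1 to Ifngr2 and Irf7 to Irf3 ratios kept their direction in the alternatives run, which did not include the GC and length correction. With a pseudocount of 0.1 TPM they were 0.63 and 0.73, both past the threshold (exact permutation test, adjusted p = 0.0476), against 0.60 and 0.38 with 1 TPM. Against MC38-P they were 0.57 and 0.43 on the log2(TPM + 1) scale for MC38-LM3a alone (exact permutation test, adjusted p = 0.200), 0.63 and 0.32 for MC38-LM3b alone (0.133), and 0.65 and 0.28 without both libraries named above (0.190). Leaving out 1 library gave 0.56 to 0.63 and 0.29 to 0.46 (0.0714 to 0.143). Depth is unknown, so no counting error can be given for Irf7, the least abundant of the 9 genes.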
